A study of Mus musculus with 34 samples.

Results

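The genes described here are 34 mouse genes of the p53 response: p53 itself (Trp53), its relative p73 (Trp73), and 32 genes known as p53 targets or partners. They were taken from a list of names, chosen with earlier results of these data known, and make up 34 of the 53655 genes in the count tables. All 34 were present in the tables of both cell types, and all 34 passed the filter on low counts in each fit. By role they comprise 2 genes of the p53 family, 9 of cell cycle control and feedback, and 9 of mitochondrial apoptosis. A further 4 belong to death receptor signalling, 4 to DNA repair and nucleotide supply, and 6 to metabolism and stress.

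RNA was sequenced from 17 libraries of EpiSC (epiblast stem cells, a primed state of pluripotency) and 17 of DE (definitive endoderm) differentiated from such lines, over 7 inbred mouse strains. C57BL/6J gave 5 libraries of each cell type, and WSB/EiJ, NZO/HiLtJ and NOD/ShiLtJ gave 2 of each. PWK/PhJ gave 3 of EpiSC and 4 of DE, CAST/EiJ 2 of EpiSC and 1 of DE, and DBA/2J 1 of each. A total of 16 lines gave both. All EpiSC were made from embryonic stem cells and grown on irradiated mouse embryonic fibroblasts, in hsFGF at 12.5 ng/mL, Activin A at 20 ng/mL and a tankyrase inhibitor at 175 nM. For DE, cells on laminin received CHIR (a GSK3 inhibitor) at 3 uM with Activin A at 40 ng/mL for 16 h. Activin A at 100 ng/mL with LDN-193189 (a BMP receptor inhibitor) at 100 nM followed for 24 h, and CXCR4+ cells were taken with magnetic beads. The fibroblasts were irradiated, and no other DNA damaging agent is named in the labels. The design text also names 129S1/SvImJ, which is not analysed here, and the labels name DBA/2J. Each library is 1 line, so the spread given below is between lines of a strain. A stranded mRNA kit served for EpiSC and a low-input cDNA amplification kit for DE, so kit and cell type cannot be told apart.

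p53 is a transcription factor that is made and destroyed continuously. The ubiquitin ligase Mdm2, itself the product of a p53 target gene, marks it for destruction, and DNA damage or other stress releases it from that control. Stabilised p53 binds as a tetramer to paired copies of a short DNA half-site and raises transcription of genes for cell cycle arrest, apoptosis, DNA repair and metabolism. Since p53 is controlled mostly as a protein, the mRNA of Trp53 is no measure of its activity, and the mRNA of its targets is the usual readout. Pluripotent cells are known to carry much p53 protein and to be sensitive to its activation.

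The promoters of 5 genes of the strain comparisons below are shown as 300-base windows, from 250 bases before to 50 after an annotated start. They were chosen, after the values were seen, because each holds a match to the p53 half-site. They are printed 5′ to 3′ on the strand of the gene, from RefSeq on GRCm38.p6, with the half-site in capitals. Cdkn1a encodes the cyclin-dependent kinase inhibitor p21, and Ccng1 encodes cyclin G1, which acts in the feedback on Mdm2. Aen is a nuclease that promotes apoptosis, and Ei24 encodes a membrane protein of the endoplasmic reticulum.

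Cdkn1a (chr17:29090729-29091028, + strand): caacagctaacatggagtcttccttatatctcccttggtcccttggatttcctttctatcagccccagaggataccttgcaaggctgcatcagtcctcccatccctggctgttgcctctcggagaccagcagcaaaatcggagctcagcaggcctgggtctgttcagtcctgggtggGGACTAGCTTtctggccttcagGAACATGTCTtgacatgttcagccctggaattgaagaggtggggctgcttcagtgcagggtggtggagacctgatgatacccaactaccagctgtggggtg
Mdm2 (chr10:117710709-117711008, - strand): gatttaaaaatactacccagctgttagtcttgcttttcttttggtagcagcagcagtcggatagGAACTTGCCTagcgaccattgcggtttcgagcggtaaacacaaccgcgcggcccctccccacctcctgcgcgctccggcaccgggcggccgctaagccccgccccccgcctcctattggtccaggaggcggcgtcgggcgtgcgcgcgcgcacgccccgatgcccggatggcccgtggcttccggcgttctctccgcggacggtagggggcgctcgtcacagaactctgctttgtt
Ccng1 (chr11:40755237-40755536, - strand): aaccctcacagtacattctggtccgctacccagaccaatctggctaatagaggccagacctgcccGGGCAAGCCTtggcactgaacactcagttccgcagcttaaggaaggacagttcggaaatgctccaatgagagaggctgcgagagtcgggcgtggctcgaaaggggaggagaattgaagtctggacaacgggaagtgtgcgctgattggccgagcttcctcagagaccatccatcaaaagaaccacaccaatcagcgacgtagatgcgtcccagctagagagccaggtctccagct
Aen (chr7:78895808-78896107, + strand): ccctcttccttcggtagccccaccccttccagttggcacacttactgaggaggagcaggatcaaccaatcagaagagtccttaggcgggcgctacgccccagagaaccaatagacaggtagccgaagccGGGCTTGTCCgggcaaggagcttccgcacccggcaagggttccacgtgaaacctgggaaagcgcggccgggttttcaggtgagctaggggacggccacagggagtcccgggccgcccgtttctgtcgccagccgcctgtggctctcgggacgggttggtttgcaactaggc
Ei24 (chr9:36797285-36797584, - strand): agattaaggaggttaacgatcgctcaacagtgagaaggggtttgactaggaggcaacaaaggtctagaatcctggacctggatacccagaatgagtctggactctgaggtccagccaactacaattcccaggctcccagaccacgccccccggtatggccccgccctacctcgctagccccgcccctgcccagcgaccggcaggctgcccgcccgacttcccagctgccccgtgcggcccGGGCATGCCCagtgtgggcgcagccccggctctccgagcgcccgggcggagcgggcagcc

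The half-site is the 10-base consensus of p53, which reads the same on both strands, and no mismatch was allowed. A full site was counted where 2 half-sites lay 0 to 13 bases apart. The printed window of Cdkn1a held 2 half-sites, starting 73 and 51 bases before its start, with the spacing of a full site. A second window of Cdkn1a, at another annotated start (chr17:29093519-29093818), held 0 half-sites. In Mdm2 the half-site began 186 bases before the start, in Ccng1 185, in Aen 121 and in Ei24 10. Of the 34 genes, 26 had a window in the table, and 11 of these 26 held a half-site in at least 1 window (42.3%), against 2582 of 27025 genes with a window (9.55%). The full site was held by Cdkn1a alone among the 26 genes (3.85%), and by 20 of all genes (0.074%). The 11 genes were Aen, Bax, Ccng1, Cdkn1a, Ei24, Gadd45a, Gtse1, Mdm2, Polk, Sesn1 and Trp53. A match describes the letters of this window only, and genes without one may hold sites elsewhere.

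Total counts ran from 25.6 to 33.8 M (M for mega) in the EpiSC libraries, and in DE they ran from 23.8 to 67.7 M. The labels were checked against marker lists, given as the log2 of their summed CPM (counts per mega counts of the library). The 8 pluripotency markers lay between 9.91 and 11.09 in EpiSC and between 5.09 and 9.03 in DE. The 8 endoderm markers lay between 5.13 and 10.25 in EpiSC and between 10.42 and 13.74 in DE. Fibroblast markers (15 genes, collagens among them) ran from 7.35 to 12.23 in EpiSC, which grew on fibroblasts, and from 6.80 to 10.96 in DE. In DE, Thy1, Dcn, Lum and Fap were at 0 counts in 2 to 5 of the 17 libraries each, and none of the 15 was at 0 in any EpiSC library. In bulk RNA, fewer cells of a type and less RNA per cell cannot be told apart.

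Levels of the 34 genes were first compared within a cell type as CPM per kilobase of exon, a scale on which genes can be ranked. Ccng1 was the highest in EpiSC, at 123 ± 34.2 (SD, n = 17). Trp53 followed at 91.1 ± 10.6 and Sesn2, a sestrin that restrains mTORC1, at 61.0 ± 10.4. Mdm2 stood at 42.6 ± 13.6 and Cdkn1a at 41.7 ± 16.2, sixth and seventh among the 34. In DE the order began with Perp, a tetraspan membrane protein of desmosomes, at 170.2 ± 59.0 (SD, n = 17), then Ccng1 at 90.0 ± 42.5 and the pore-forming Bax at 78.1 ± 22.7. Gdf15, a secreted factor of the TGF-beta superfamily, was the lowest in EpiSC (0.215 ± 0.0974). It had 5 to 22 counts per EpiSC library and 0 to 43 per DE library, and it was called in no comparison. Exons of 8 of the 34 genes overlap annotated exons on the opposite strand: Rrm2b by 734 bases, Ddb2 by 652, Gadd45a by 337, Ei24 by 324, Trp73 by 280, Cdkn1a by 273, Tigar by 122 and Plk3 by 84. Whether the counts kept strands apart is not given, so the values of these 8 are uncertain to that extent.

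DE and EpiSC were compared to ask which p53 genes differ between the pluripotent state and the endoderm made from it. Most of the 34 differed, in both directions: 20 were lower in DE and 10 higher. The BH3-only gene Pmaip1 and Zmat3, which encodes an RNA-binding zinc finger protein, were among the largest falls, and the receptor genes Tnfrsf10b and Eda2r fell too. Perp, Fas and the antiproliferative gene Btg2 were higher. The test was edgeR's quasi-likelihood F test with strain as a term, and a gene was called at a Benjamini-Hochberg adjusted p under 0.05 over all genes tested. It called 77.2% of all 20907 genes (37.3% higher, 39.9% lower), so 30 of 34 called genes is near that background. The median log2 fold of the 34 genes was -0.50, and that of all genes -0.06.

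The p53 family genes were both lower in DE. Trp53 ran from 8.18 to 8.82 (median 8.54) log2 CPM in EpiSC and from 7.62 to 8.27 (median 8.04) in DE, with a log2 fold of -0.50 ± 0.06 (SE; adjusted p = 1.24e-08). It was lower in DE in 16 of 16 lines. A Trp53 pseudogene exists in the mouse genome, and how reads with several alignments were counted is not given, so the values of Trp53 are uncertain to that extent. Trp73 ran from 2.69 to 4.80 (median 4.16) log2 CPM in EpiSC (170 to 782 counts). In DE it had 0 to 48 counts, and 6 of the 17 DE libraries had none. Its fitted log2 fold of -5.98 ± 0.57 (SE) depends on how low counts are treated.

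Among the 9 genes of cell cycle control and feedback, 4 fell, 2 rose and 3 were not called. Cdkn1a ran from 6.30 to 8.03 (median 7.21) log2 CPM in EpiSC and from 5.73 to 8.87 (median 7.25) in DE, and Mdm2 from 7.05 to 8.47 (median 7.68) and from 6.58 to 9.04 (median 7.43). For both genes the EpiSC range lay within the DE range. Their log2 folds were 0.26 ± 0.13 (SE; adjusted p = 0.073) for Cdkn1a and -0.22 ± 0.11 (SE; adjusted p = 0.0717) for Mdm2. Neither was called, but Cdkn1a was without the DE library of C57BL/6J 44 or WSB/EiJ AC627 or the EpiSC library of C57BL/6J 5-1 or WSB/EiJ AC635, and Mdm2 without either library of NOD/ShiLtJ AC576 or the EpiSC library of NZO/HiLtJ AC671, with log2 folds from 0.21 to 0.33 for Cdkn1a and from -0.28 to -0.16 for Mdm2. Plk2, a polo-like kinase, was not called either, at -0.29 ± 0.27 (SE). Zmat3 ran from 6.91 to 8.30 (median 7.66) log2 CPM in EpiSC and from 3.51 to 5.82 (median 4.86) in DE. No DE library reached the EpiSC range, and the log2 fold was -2.82 ± 0.16 (SE; adjusted p = 2.11e-16). Ccng1 fell at -0.53 ± 0.12, the microtubule-associated Gtse1 at -0.46 ± 0.11 and the damage response gene Gadd45a at -0.68 ± 0.28 (SE). The call of Gadd45a ended without either DBA/2J library (-0.60 and -0.59). Btg2 rose at 1.43 ± 0.13 and Plk3, a relative of Plk2, at 1.32 ± 0.14 (SE), each in 16 of 16 lines.

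All 9 genes of mitochondrial apoptosis were called, 4 higher and 5 lower. Perp ran from 5.13 to 6.81 (median 5.55) log2 CPM in EpiSC and from 7.57 to 9.04 (median 8.39) in DE, with no overlap, and a log2 fold of 2.61 ± 0.15 (SE; adjusted p = 5.53e-16). Bbc3 (PUMA), a BH3-only activator of Bax, rose at 0.93 ± 0.15, Bax at 0.63 ± 0.10 and Phlda3, a repressor of Akt, at 0.65 ± 0.22 (SE). Pmaip1 (NOXA), another BH3-only gene, went the other way. It ran from 3.06 to 7.62 (median 5.83) log2 CPM in EpiSC and from -4.01 to 5.05 (median 3.16) in DE, a log2 fold of -3.14 ± 0.53 (SE; adjusted p = 4.95e-06). It was lower in DE in 16 of 16 lines, and C57BL/6J 44 had 0 counts in DE. The apoptosome scaffold Apaf1 fell at -0.77 ± 0.12, the stress protein gene Trp53inp1 at -0.59 ± 0.16, Aen at -0.50 ± 0.10 and Ei24 at -0.21 ± 0.09 (SE). The call of Ei24 ended in 17 of the 34 fits that left out 1 library, with log2 folds from -0.25 to -0.17 over all 34.

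All 4 genes of death receptor signalling were called, 1 higher and 3 lower. Tnfrsf10b, the mouse TRAIL receptor, ran from 4.85 to 6.24 (median 5.52) log2 CPM in EpiSC and from 2.16 to 3.95 (median 3.34) in DE, with no overlap. Its log2 fold was -2.34 ± 0.14 (SE; adjusted p = 6.83e-16). Eda2r, the ectodysplasin A2 receptor gene on chromosome X, ran from 5.05 to 6.70 (median 5.66) and from 1.21 to 5.40 (median 3.45), with a log2 fold of -2.31 ± 0.21 (SE; adjusted p = 2.42e-11). Fas, the receptor for Fas ligand, rose at 1.72 ± 0.30 from a low level in EpiSC (10 to 149 counts per library). Pidd1, a scaffold that activates caspase-2, fell at -0.76 ± 0.10 (SE).

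Of the 4 genes of DNA repair and nucleotide supply, the damage recognition gene Xpc rose at 0.32 ± 0.07 and the other 3 fell. These were Ddb2, also of damage recognition, at -0.38 ± 0.12, the translesion polymerase gene Polk at -0.69 ± 0.15 and the ribonucleotide reductase subunit gene Rrm2b at -0.99 ± 0.14 (SE). Of the 6 genes of metabolism and stress, 2 rose, 3 fell and Gdf15 was not called. The 2 sestrins went opposite ways, Sesn1 at 1.16 ± 0.09 and Sesn2 at -0.87 ± 0.11 (SE), each in 16 of 16 lines. Tigar, a fructose bisphosphatase, fell at -0.74 ± 0.09 and the epoxide hydrolase gene Ephx1 at -0.83 ± 0.25 (SE). Dcxr, a sugar reductase gene, rose at 0.72 ± 0.14 (SE). With the mean level of the fibroblast markers as a covariate in the edgeR test, the folds of Gadd45a (0.76) and Ephx1 (0.88) turned upward. Ephx1 was called in that direction (adjusted p = 0.00342) and Gadd45a was not (adjusted p = 0.0734). The fold of Cdkn1a was then called (0.57), and those of Ccng1 (-0.27), Gtse1 (-0.31), Ei24 (-0.28) and Xpc (0.18) no longer were. All 15 fibroblast markers were lower in DE.

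Within lines, 10 genes were lower in DE in each of the 16 lines with both libraries and 5 were higher in each. How many of all genes went the same way in each line was not computed, so these counts have no background share. The 10 were Trp53, Trp73, Zmat3, Pmaip1, Aen, Tnfrsf10b, Eda2r, Pidd1, Sesn2 and Tigar, and the 5 were Btg2, Plk3, Bax, Perp and Sesn1. In the other 19 genes at least 1 line went against the rest. For Plk2 the difference ran from -2.37 to 2.77 log2 CPM, with 5 lines higher in DE and 11 lower. For Gadd45a it ran from -2.31 to 3.14, with 2 higher and 14 lower.

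**Figure D1:**
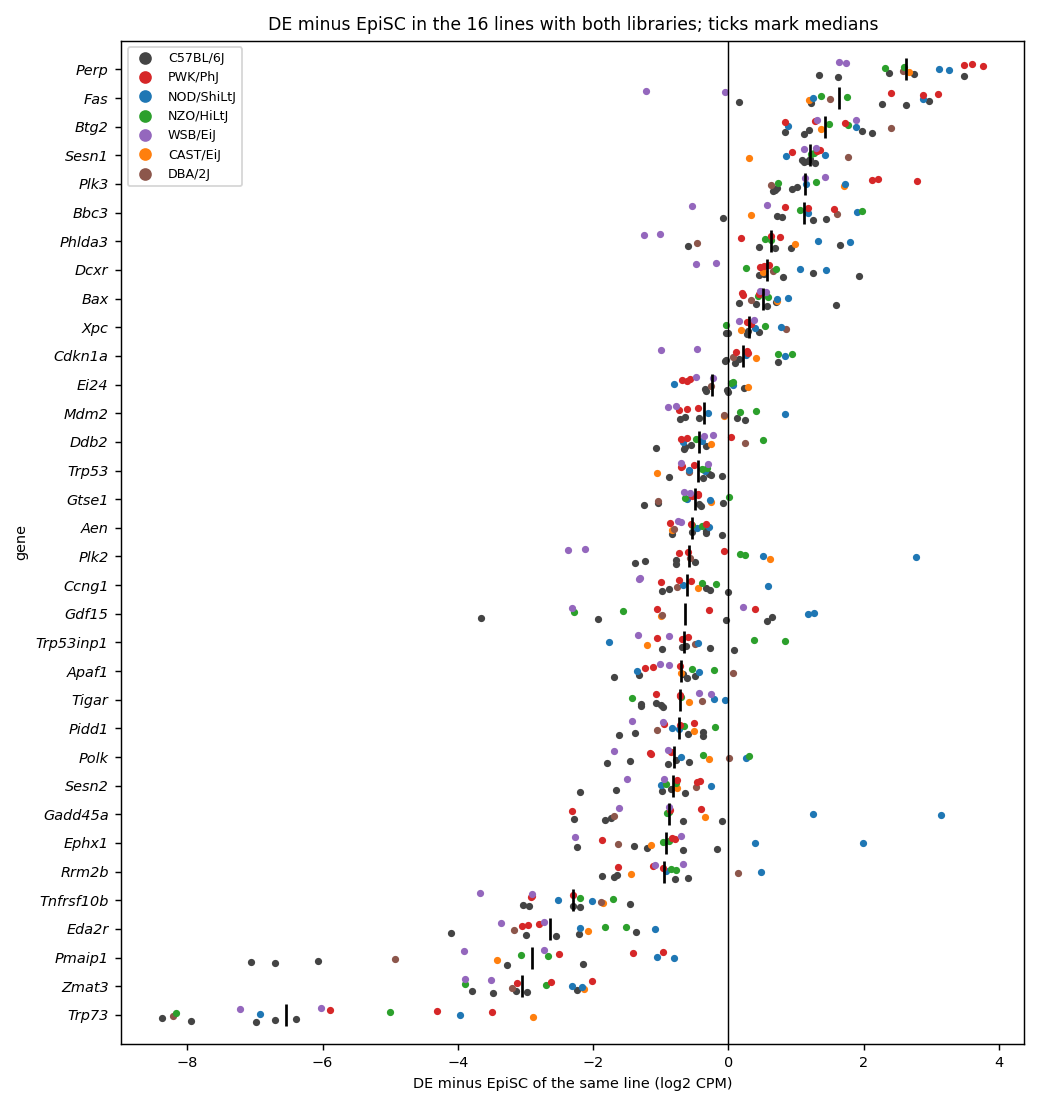
Difference of log2 CPM between the DE and the EpiSC library of the same line (x axis) for each of the 34 genes (y axis, ordered by median), 1 point per line coloured by strain, with a tick at the median of 16 lines. Perp, Plk3, Btg2, Bax and Sesn1 lie wholly right of 0, and the 2 blue NOD/ShiLtJ points stand far right of the other lines for Gadd45a. Values of Trp73 in libraries with 0 counts depend on the prior count of 2.

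In EpiSC the strains were compared to ask whether levels of p53 genes differ with genetic background in these cultures. The cultures held irradiated fibroblasts, and how much of each gene's RNA came from them was not measured. Over C57BL/6J, PWK/PhJ, NOD/ShiLtJ, NZO/HiLtJ and WSB/EiJ, 19 of the 34 genes differed by strain (edgeR quasi-likelihood F test, adjusted p under 0.05), where 40.0% of all 17868 genes did. Leaving out each of 14 libraries in turn, 13 of the 19 were called every time, and the number called ran from 14 to 23. By role, the calls were 6 of 9 genes of cell cycle control, 6 of 9 of mitochondrial apoptosis and 3 of 4 of death receptor signalling. The smallest adjusted p among the 34 belonged to Tnfrsf10b (5.28e-07), followed by Eda2r (1.56e-04), Ccng1 (6.10e-04) and Cdkn1a (8.74e-04). Trp53 was not called (adjusted p = 0.138), except without C57BL/6J 2 (adjusted p = 0.0484).

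PWK/PhJ, a strain derived from wild Mus musculus musculus, had higher levels than C57BL/6J for many of the 34 genes in EpiSC. A total of 18 genes rose and 1 (Zmat3) fell, where 29.8% of all genes were called (13.7% rose and 16.1% fell). The median log2 fold of the 34 genes was 0.37, and that of all genes -0.01. Those that rose included the arrest gene Cdkn1a, the feedback genes Mdm2 and Ccng1, the death receptor genes Tnfrsf10b and Eda2r, and the kinase gene Plk2. Most log2 folds lay between 0.3 and 1.2. Of DNA repair and nucleotide supply 1 of 4 genes was called and of metabolism and stress 1 of 6, with median log2 folds of -0.03 and -0.05. A list of 19 other p53 targets, read below, had 2 higher and 3 lower, with a median of -0.04.

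The clearest case was Tnfrsf10b. Its levels were 6.10, 6.23 and 6.24 log2 CPM in the 3 PWK/PhJ lines and 5.19, 5.30, 5.31, 5.38 and 5.38 in the 5 C57BL/6J lines. All 3 lay above all 5, and the log2 fold was 0.91 ± 0.07 (SE; adjusted p = 7.22e-07). Eda2r stood at 6.29, 6.51 and 6.70 log2 CPM in PWK/PhJ and at 5.23, 5.31, 5.64, 5.76 and 5.80 in C57BL/6J, again without overlap, with a log2 fold of 0.98 ± 0.14 (SE; adjusted p = 1.84e-04). Pidd1 was at 0.41 ± 0.12 (SE), and Fas, at 1.14 ± 0.48 (SE; adjusted p = 0.0891), was not called.

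Cdkn1a stood at 7.55, 7.62 and 7.87 log2 CPM in the PWK/PhJ lines and at 6.41, 6.55, 6.55, 6.82 and 7.41 in the C57BL/6J lines. The groups did not overlap, the highest C57BL/6J line being 5-1, and the log2 fold was 0.93 ± 0.19 (SE; adjusted p = 0.00284). Ccng1 stood at 9.17, 9.26 and 9.29 against 8.19, 8.23, 8.29, 8.45 and 8.83 log2 CPM, a log2 fold of 0.86 ± 0.13 (SE; adjusted p = 3.02e-04). Mdm2 stood at 7.93, 8.16 and 8.33 against 7.07, 7.13, 7.31, 7.40 and 8.05 log2 CPM, where line 5-1 of C57BL/6J lay within the PWK/PhJ range, with a log2 fold of 0.75 ± 0.18 (SE; adjusted p = 0.00818). Plk2 stood at 6.57, 6.66 and 7.01 against 5.42, 5.50, 5.50, 5.53 and 6.38 log2 CPM, a log2 fold of 1.08 ± 0.21 (SE; adjusted p = 0.00169). In each of these genes line 5-1 was the highest of the C57BL/6J lines. Its fibroblast marker sum, 11.87 (log2), was also the highest among them, and a link was not tested. Gtse1 was at 0.38 ± 0.12, and Zmat3, the gene that fell, at -0.43 ± 0.10 (SE).

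Of the mitochondrial apoptosis genes 6 of 9 rose. Trp53inp1 stood at 7.98, 8.06 and 8.49 log2 CPM in PWK/PhJ and at 7.10, 7.29, 7.71, 7.78 and 7.89 in C57BL/6J, a log2 fold of 0.64 ± 0.17 (SE; adjusted p = 0.0117). Phlda3 was at 0.72 ± 0.15, Aen at 0.56 ± 0.17, Ei24 at 0.55 ± 0.10, Apaf1 at 0.37 ± 0.11 and Bax at 0.31 ± 0.07 (SE). The BH3-only genes were not called, Bbc3 at -0.13 ± 0.34 and Pmaip1 at -1.84 ± 0.92 (SE). Pmaip1 ran from 3.06 to 7.62 log2 CPM over the 5 C57BL/6J lines alone. In DNA repair, Polk stood at 5.44, 5.55 and 5.82 log2 CPM against 4.73, 4.79, 4.81, 5.18 and 5.28, a log2 fold of 0.67 ± 0.15 (SE; adjusted p = 0.00362), and Dcxr rose at 0.52 ± 0.15 (SE).

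Trp53 stood at 8.57, 8.65 and 8.68 log2 CPM in the PWK/PhJ lines and at 8.18, 8.30, 8.30, 8.54 and 8.60 in the C57BL/6J lines, which overlapped. Its log2 fold was 0.27 ± 0.10 (SE; adjusted p = 0.0438), a call that held only without C57BL/6J 2 or 5-1 among 8 fits that left out 1 library, with folds from 0.22 to 0.33 over the 8. Trp73 was at 1.16 ± 0.34 (SE), and its call ended without PWK/PhJ AC705 (1.12) or AC698 (1.11). No p53 protein was measured.

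Of the 19 calls, 10 held without each of the 8 compared libraries in turn (Bax, Ccng1, Cdkn1a, Eda2r, Ei24, Phlda3, Plk2, Polk, Tnfrsf10b, Zmat3). Without PWK/PhJ AC698, 10 genes were called, and the calls of Mdm2 (0.65), Trp53inp1 (0.47), Apaf1 (0.33), Dcxr (0.46) and Pidd1 (0.36) ended. Apaf1 was also lost without AC695 (0.34), Dcxr without AC705 (0.51) and Pidd1 without C57BL/6J 4 (0.37). Aen was lost without any 1 PWK/PhJ line, C57BL/6J 4 or 44 (0.49 to 0.71 over 8 fits), and Gtse1 without any library but C57BL/6J 5-1 (0.33 to 0.47). The fibroblast marker sum was 11.55 to 12.02 (log2) in PWK/PhJ and 7.35 to 11.87 in C57BL/6J. Of the 15 markers 0 were called, but all 15 had a log2 fold above 0, with a median of 1.27. With their mean level as a covariate, 11 genes were called, among them Cdkn1a, Mdm2, Tnfrsf10b and Eda2r. The Y-linked sum was 7.90 to 8.24 in PWK/PhJ and 5.43 to 7.82 in C57BL/6J, and with that level as a covariate 6 genes were called. Cdkn1a (0.64), Mdm2 (0.64) and Plk2 (0.76) were then not among them.

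NOD/ShiLtJ, a classical strain used as a model of autoimmune diabetes, was compared with the same 5 C57BL/6J libraries, so the values for both strains share those controls. In EpiSC 9 genes rose and 3 fell, where 5.98% of all genes rose and 6.94% fell. The median log2 fold of the 34 genes was 0.20, and that of all genes 0.00. Cdkn1a stood at 7.80 and 8.03 log2 CPM in the 2 NOD/ShiLtJ lines, above all C57BL/6J lines, with a log2 fold of 1.15 ± 0.21 (SE; adjusted p = 0.00473). Mdm2 stood at 8.21 and 8.47 log2 CPM and Ccng1 at 9.01 and 9.28, both pairs above all C57BL/6J lines. Their log2 folds were 0.93 ± 0.21 (SE; adjusted p = 0.0121) and 0.75 ± 0.15 (SE; adjusted p = 0.00664). Plk2, at 6.25 and 6.52 log2 CPM, was not called (0.69 ± 0.24, SE).

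Among the death receptor genes, Tnfrsf10b stood at 5.97 and 6.14 log2 CPM, a log2 fold of 0.76 ± 0.08 (SE; adjusted p = 8.19e-05), and Eda2r at 6.35 and 6.49, a log2 fold of 0.87 ± 0.16 (SE; adjusted p = 0.00395). Of the apoptosis genes, Trp53inp1 stood at 8.19 and 8.33 log2 CPM with a log2 fold of 0.70 ± 0.19, and Aen was at 0.88 ± 0.19, Phlda3 at 0.62 ± 0.18 and Ei24 at 0.38 ± 0.11 (SE). The 3 genes that fell were Sesn1 at -0.71 ± 0.18, Zmat3 at -0.44 ± 0.12 and Xpc at -0.43 ± 0.12 (SE). Trp53 stood at 8.54 and 8.62 log2 CPM and was not called (0.21 ± 0.11, SE).

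With 2 lines, single libraries decided most of these calls, and the lone remaining line was then taken to vary like the other groups. Tnfrsf10b alone held without each library. Without AC576, 3 genes were called, and without AC595, 7. Cdkn1a (1.01), Aen (0.53) and Eda2r (0.78) were lost without AC576, and Mdm2 (0.81) and Ccng1 (0.62) without AC595. Sesn1 was lost without AC576 (-0.74) or AC595 (-0.69), and so was Zmat3 (-0.41 and -0.47). Trp53inp1 (0.60 to 0.79 over 7 fits), Xpc (-0.52 to -0.35), Phlda3 (0.36 to 0.84) and Ei24 (0.33 to 0.43) were each lost without AC576 or C57BL/6J 44, among 3 to 5 of the 7 libraries. The fibroblast marker sum of the 2 lines was 10.00 and 12.23 (log2). Of the 15 markers 0 were called, but all 15 had a log2 fold above 0, with a median of 0.87. Their Y-linked sum was 8.28 and 8.31, above the C57BL/6J range; its part in the NOD/ShiLtJ result was not tested.

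**Figure D2:**
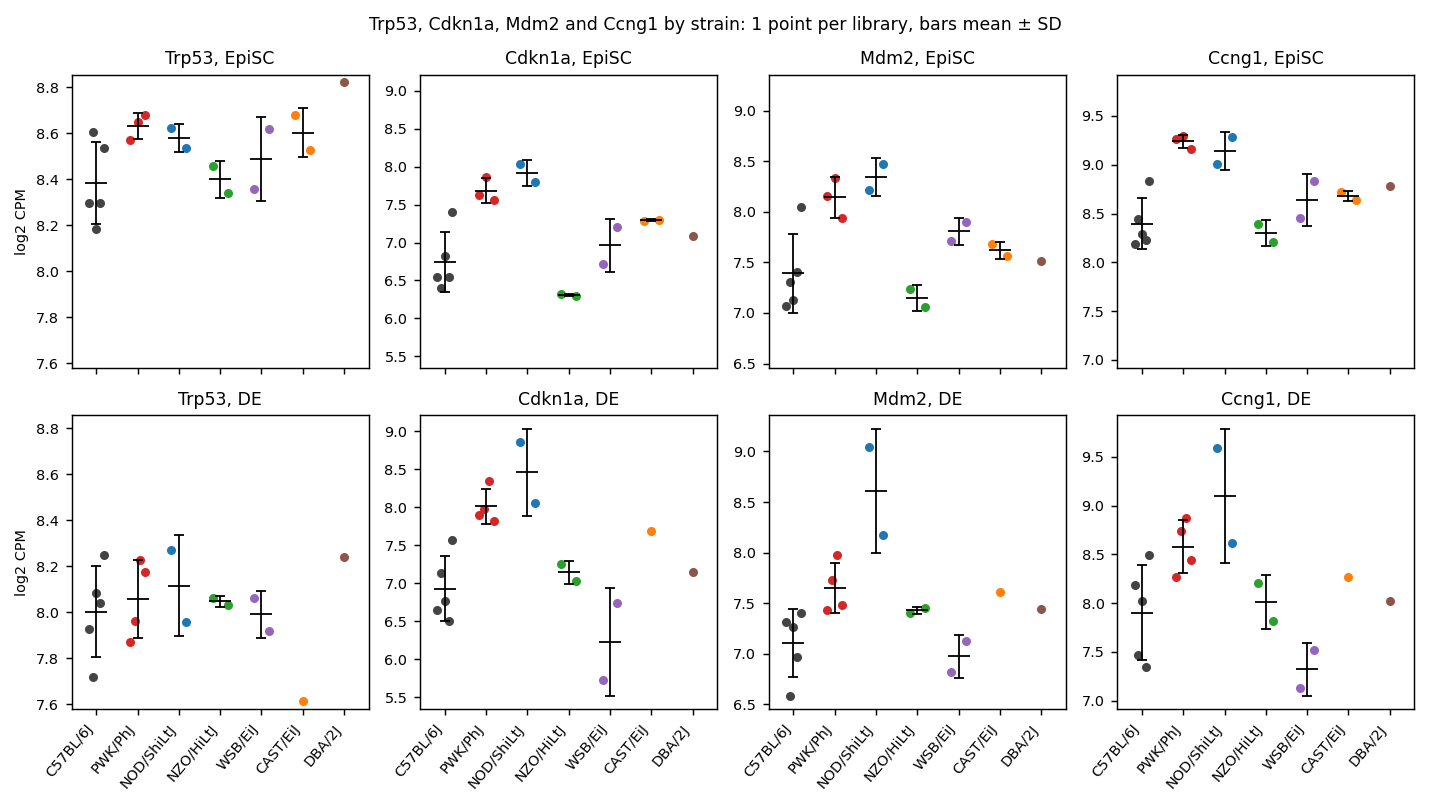
Log2 CPM (y axis) of Trp53, Cdkn1a, Mdm2 and Ccng1 by strain (x axis) in EpiSC (top) and DE (bottom), 1 point per library, with mean ± SD for strains with 2 or more lines. The PWK/PhJ and NOD/ShiLtJ points of Cdkn1a and Ccng1 in EpiSC lie above all C57BL/6J points, and those of Trp53 overlap them.

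NZO/HiLtJ, a polygenic obesity strain, had 1 called gene in EpiSC, where 5.52% of all genes were called and 2.82% fell. Of the 34 genes 30 had a log2 fold below 0 and 4 above, with a median of -0.21, beside -0.03 for all genes. Tnfrsf10b stood at 4.85 and 5.11 log2 CPM, below all C57BL/6J lines, with a log2 fold of -0.33 ± 0.09 (SE; adjusted p = 0.0447). That call held only without C57BL/6J 44 among 7 fits that left out 1 library (-0.46 to -0.21), and without C57BL/6J 2, 5 genes were called. Cdkn1a stood at 6.30 and 6.32 log2 CPM, the lowest levels of any EpiSC library, and its log2 fold of -0.49 ± 0.23 (SE; adjusted p = 0.244) was not called. Mdm2, at 7.05 and 7.24 log2 CPM, and Ccng1, at 8.20 and 8.39, overlapped C57BL/6J. Plk2 stood at 4.90 and 4.98 log2 CPM, below all C57BL/6J lines, and was not called (-0.78 ± 0.25, SE; adjusted p = 0.1). Eda2r (5.05 and 5.40), Trp53 (8.34 and 8.46), Trp53inp1 (6.69 and 7.04) and Polk (4.31 and 4.54) were not called. A count of 9 genes had an unadjusted p under 0.05, and DESeq2 called 6. For unadjusted p-values and DESeq2, shares over all genes are not given here or below, so these counts have no background.

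WSB/EiJ, derived from wild Mus musculus domesticus, had 3 called genes in EpiSC, where 7.41% of all genes were called (3.45% rose and 3.96% fell). Log2 folds lay above 0 in 17 of the 34 genes and below in 17, with a median of 0.01, beside -0.02 for all genes. Ddb2 stood at 1.65 and 2.17 log2 CPM in WSB/EiJ and at 3.00, 3.30, 3.41, 3.46 and 3.54 in C57BL/6J. Both lines lay below all other EpiSC libraries, and the log2 fold was -1.42 ± 0.21 (SE; adjusted p = 6.98e-04). The exons that overlap its own are those of Acp2. Tnfrsf10b stood at 5.98 and 6.01 log2 CPM, above all C57BL/6J lines, with a log2 fold of 0.69 ± 0.08 (SE; adjusted p = 1.39e-04). Zmat3 fell at -0.61 ± 0.12 (SE), a call that ended without WSB/EiJ AC635 (-0.55). Without C57BL/6J 5-1, 5 genes were called. Cdkn1a (6.72 and 7.21), Mdm2 (7.71 and 7.90), Ccng1 (8.45 and 8.83), Plk2 (5.75 and 6.33) and Trp53 (8.36 and 8.62) overlapped C57BL/6J, and Mdm2 was called without C57BL/6J 5-1 (0.59, adjusted p = 0.00943).

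CAST/EiJ, derived from wild Mus musculus castaneus, was compared in EpiSC only. There 2 genes rose and 4 fell, where 31.6% of all genes were called (14.5% rose and 17.1% fell). Log2 folds lay above 0 in 15 of the 34 genes and below in 19, with a median of -0.13, beside -0.01 for all genes. Zmat3 fell at -1.13 ± 0.12 (SE; adjusted p = 1.20e-05) and Fas rose at 2.13 ± 0.52 (SE; adjusted p = 0.0066), from 10 to 53 counts in C57BL/6J to 138 and 149 in CAST/EiJ. These 2 calls held without each library. Markers moved in the same libraries. The sum of the endoderm markers was 9.98 and 10.25 (log2) in CAST/EiJ and 5.13 to 8.49 in C57BL/6J, with 6 of 8 markers higher. That of the pluripotency markers was 9.91 and 10.28 against 10.48 to 11.09, with 4 of 8 lower and 1 at 0 counts in at least 1 library. Their part in the result was not tested. Sesn2 was at -0.62 ± 0.14, Sesn1 at -0.52 ± 0.18, Tigar at -0.33 ± 0.10 and Perp at 0.73 ± 0.25 (SE). Without CAST/EiJ WM080, 2 genes were called, and the calls of Sesn2 (-0.58), Sesn1 (-0.40), Tigar (-0.36) and Perp (0.46) ended. Sesn1 was lost in 5 of 7 fits in all (-0.65 to -0.40), Perp in 4 (0.46 to 0.96) and Tigar in 2 (-0.36 to -0.30). Without C57BL/6J 5-1, 11 genes were called. Cdkn1a stood at 7.28 and 7.30 log2 CPM (0.51 ± 0.22, SE; adjusted p = 0.0949), Mdm2 at 7.56 and 7.68, Ccng1 at 8.64 and 8.72 and Trp53 at 8.53 and 8.68, and none of these was called with all libraries. Without C57BL/6J 5-1, Cdkn1a (0.72, adjusted p = 0.00168) and Mdm2 (0.40, adjusted p = 0.0232) were called, and without C57BL/6J 2 Trp53 was (0.28, adjusted p = 0.048). The single DBA/2J line stood at 8.82 log2 CPM for Trp53, the highest EpiSC library, at 7.09 for Cdkn1a and at 7.51 for Mdm2.

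**Figure D3:**
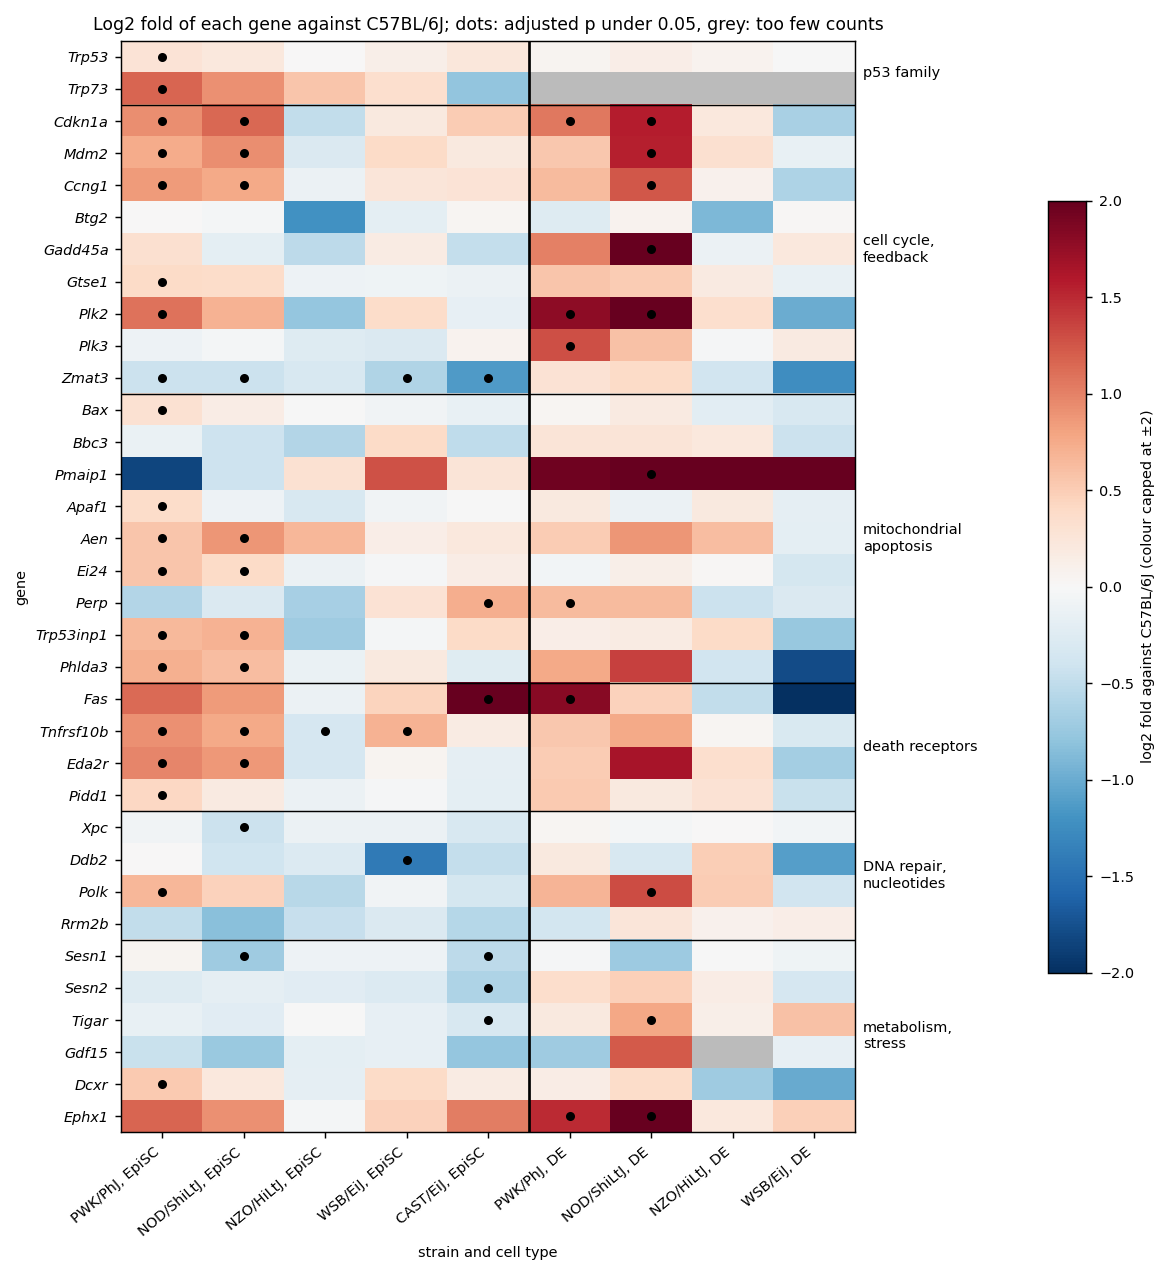
Log2 fold of each of the 34 genes (rows, by role) against C57BL/6J for each strain in EpiSC and DE (columns), from blue (lower) to red (higher), capped at 2 in either direction. Dots mark an adjusted p under 0.05, and grey marks comparisons with under 10 counts in every library of a group. The dots gather in the PWK/PhJ and NOD/ShiLtJ columns, and the NZO/HiLtJ and WSB/EiJ columns of DE have none.

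In DE, 12 of the 34 genes differed over the same 5 strains (F test), where 22.3% of all 19290 genes did, and 7 of the 12 were called without each of 15 libraries in turn. The smallest adjusted p-values were those of Plk2 (1.77e-04), Gadd45a (0.00102), Cdkn1a (0.00165), Mdm2 (0.00224) and Fas (0.00248). The call of Mdm2 ended without NOD/ShiLtJ AC576 (adjusted p = 0.051), and so did that of Ccng1 (0.066). Trp73, Pmaip1 and Phlda3 were the others of the 12 that did not hold. In the same test 9 of 15 fibroblast markers differed by strain. With their mean level as a covariate the calls of Cdkn1a, Plk2, Plk3 and Fas held, and the other 8 ended (Trp73, Mdm2, Ccng1, Gadd45a, Pmaip1, Perp, Phlda3 and Ephx1, adjusted p from 0.0700 to 0.574). The genes called in both cell types were Ccng1, Cdkn1a, Mdm2, Phlda3 and Plk2, which make up 26.3% of those called in EpiSC and 41.7% of those called in DE. Trp53 (adjusted p = 0.972), Bbc3, Btg2, Gdf15, Rrm2b, Sesn2, Tigar and Xpc were called in neither.

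PWK/PhJ DE had 7 genes higher than C57BL/6J and 0 lower, where 9.66% of all genes were higher and 7.47% lower. DESeq2 called 7 in either direction, and 12 had an unadjusted p under 0.05. The median log2 fold of the 34 genes was 0.51, and that of all genes -0.01. Plk3 stood at 5.50, 5.97, 6.09 and 6.59 log2 CPM in PWK/PhJ and at 4.41, 4.44, 4.70, 5.12 and 5.21 in C57BL/6J. The groups did not overlap, and the log2 fold was 1.28 ± 0.25 (SE; adjusted p = 0.00225). Plk2 stood at 5.93, 6.41, 6.51 and 7.33 against 4.11, 4.19, 4.76, 5.02 and 5.59 log2 CPM, a log2 fold of 1.79 ± 0.41 (SE; adjusted p = 0.00656). Cdkn1a stood at 7.82, 7.91, 7.98 and 8.35 against 6.51, 6.65, 6.77, 7.14 and 7.57 log2 CPM, without overlap, with a log2 fold of 1.06 ± 0.25 (SE; adjusted p = 0.00941). Fas stood at 3.62, 3.84, 4.15 and 4.48 against 1.01, 1.43, 1.50, 2.34 and 3.50 log2 CPM, where C57BL/6J 5-1 came close to the PWK/PhJ range, with a log2 fold of 1.82 ± 0.45 (SE; adjusted p = 0.0113).

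Perp stood at 8.39, 8.74, 8.82 and 9.04 log2 CPM in PWK/PhJ and at 7.76, 7.86, 7.88, 8.39 and 8.64 in C57BL/6J, which overlapped, with a log2 fold of 0.63 ± 0.19 (SE; adjusted p = 0.03). Ephx1 stood at 2.76, 3.73, 3.82 and 4.42 against 1.39, 1.48, 1.95, 2.97 and 3.03 log2 CPM, also overlapping, with a log2 fold of 1.49 ± 0.46 (SE; adjusted p = 0.0363). These 2 calls each ended in 6 of 9 fits that left out 1 library (0.52 to 0.77 for Perp, 1.21 to 1.71 for Ephx1 over the 9). Mdm2, at 7.43, 7.48, 7.73 and 7.97 against 6.58, 6.97, 7.26, 7.31 and 7.40 log2 CPM, did not overlap and was not called (0.53 ± 0.21, SE; adjusted p = 0.1). Ccng1 was at 0.63 ± 0.26 (SE; adjusted p = 0.11), and Trp53, at 7.87, 7.96, 8.18 and 8.23 against 7.72, 7.93, 8.04, 8.08 and 8.25 log2 CPM, at 0.05 ± 0.14 (SE). Trp73 was nearly absent from C57BL/6J DE, with 1 count summed over 5 libraries (214.3 M counts in all), and had 137 summed over the 4 PWK/PhJ libraries (133.3 M). That is a ratio of CPM of 220 (exact 95% interval 38.9 to 8762, counting error only).

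The fibroblast marker sum in DE was 7.75 to 9.31 (log2) in PWK/PhJ and 6.80 to 8.57 in C57BL/6J, and 5 of 15 markers rose. With their mean level as a covariate, 3 of the 34 genes were called: the folds of Cdkn1a (0.73), Plk2 (1.60), Perp (0.53) and Ephx1 (0.23) were then not called. The Y-linked sum was 2.85 (log2) in PWK/PhJ AC699, which gave no EpiSC library, and 7.89 to 8.32 in the other PWK/PhJ lines. AC699 was the highest PWK/PhJ line for Cdkn1a, Mdm2, Plk2 and Ephx1, and the lowest for Plk3 and Perp. With the mean Y-linked level as a covariate, the calls of Cdkn1a, Plk2, Plk3, Fas, Perp, Ephx1 and Trp73 held. Without C57BL/6J 5-1, 11 genes were called.

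NOD/ShiLtJ DE had 10 genes higher and 0 lower than the same C57BL/6J libraries, where 7.98% of all genes were higher and 3.38% lower. DESeq2 called 13 in either direction, and 15 had an unadjusted p under 0.05. The median log2 fold of the 34 genes was 0.54, and that of all genes -0.05. Plk2 stood at 7.02 and 9.02 log2 CPM in the 2 lines, both above all C57BL/6J lines, with a log2 fold of 3.53 ± 0.47 (SE; adjusted p = 4.70e-04). Gadd45a stood at 5.12 and 6.19 log2 CPM in NOD/ShiLtJ, at 1.41, 2.01, 2.25, 2.65 and 3.36 in C57BL/6J and at 1.76, 3.34, 3.38 and 4.33 in PWK/PhJ. Both NOD/ShiLtJ lines were above every other DE library, and the log2 fold against C57BL/6J was 3.33 ± 0.51 (SE; adjusted p = 0.00107). Ephx1 stood at 5.22 and 5.39 log2 CPM, again above every other library, with a log2 fold of 3.01 ± 0.53 (SE; adjusted p = 0.00237). These 3 calls held without each of the 7 compared libraries.

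Cdkn1a stood at 8.05 and 8.87 log2 CPM, a log2 fold of 1.56 ± 0.30 (SE; adjusted p = 0.00397), and Mdm2 at 8.17 and 9.04, a log2 fold of 1.56 ± 0.25 (SE; adjusted p = 0.00129). Ccng1 was at 1.23 ± 0.31, Pmaip1 at 3.76 ± 0.83, Polk at 1.31 ± 0.38 and Tigar at 0.78 ± 0.23 (SE). Trp73 had 3 and 40 counts in the 2 lines, a ratio of CPM to C57BL/6J of 169 (exact 95% interval 28.8 to 6832, counting error only). In all 7 of these genes the higher line was AC576. Without it 3 genes were called, and the folds were 1.06 for Cdkn1a, 1.02 for Mdm2, 0.63 for Ccng1, 3.58 for Pmaip1, 0.79 for Polk and 0.52 for Tigar, none called. Polk was also lost without C57BL/6J 44 (1.18), and Tigar without C57BL/6J 44 (0.73), 5-1 (0.74) or 1 (0.80). Plk3 (5.13 and 5.59 log2 CPM), Fas (2.24 and 3.05), Perp (8.67 and 8.84) and Trp53 (7.96 and 8.27) were not called.

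The cells labelled NOD/ShiLtJ DE also differed in their markers. The fibroblast sum was 10.73 and 10.96 (log2) against 6.80 to 8.57 in C57BL/6J, with 13 of 15 markers higher and none at 0. The endoderm sum was 10.42 and 11.84 against 12.59 to 13.74, with 6 of 8 markers lower. The pluripotency sum was 8.73 and 9.03 against 7.05 to 7.80, with 4 of 8 higher and 1 lower. With the mean fibroblast marker level as a covariate, 0 of the 34 genes were called by edgeR: Plk2 stood at 3.18 (adjusted p = 0.21), Gadd45a at 1.63 (0.41), Ephx1 at 0.52 (0.81), Cdkn1a at 0.89 (0.49) and Mdm2 at 1.72 (0.20). Markers and strain moved together in these libraries.

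**Figure D4:**
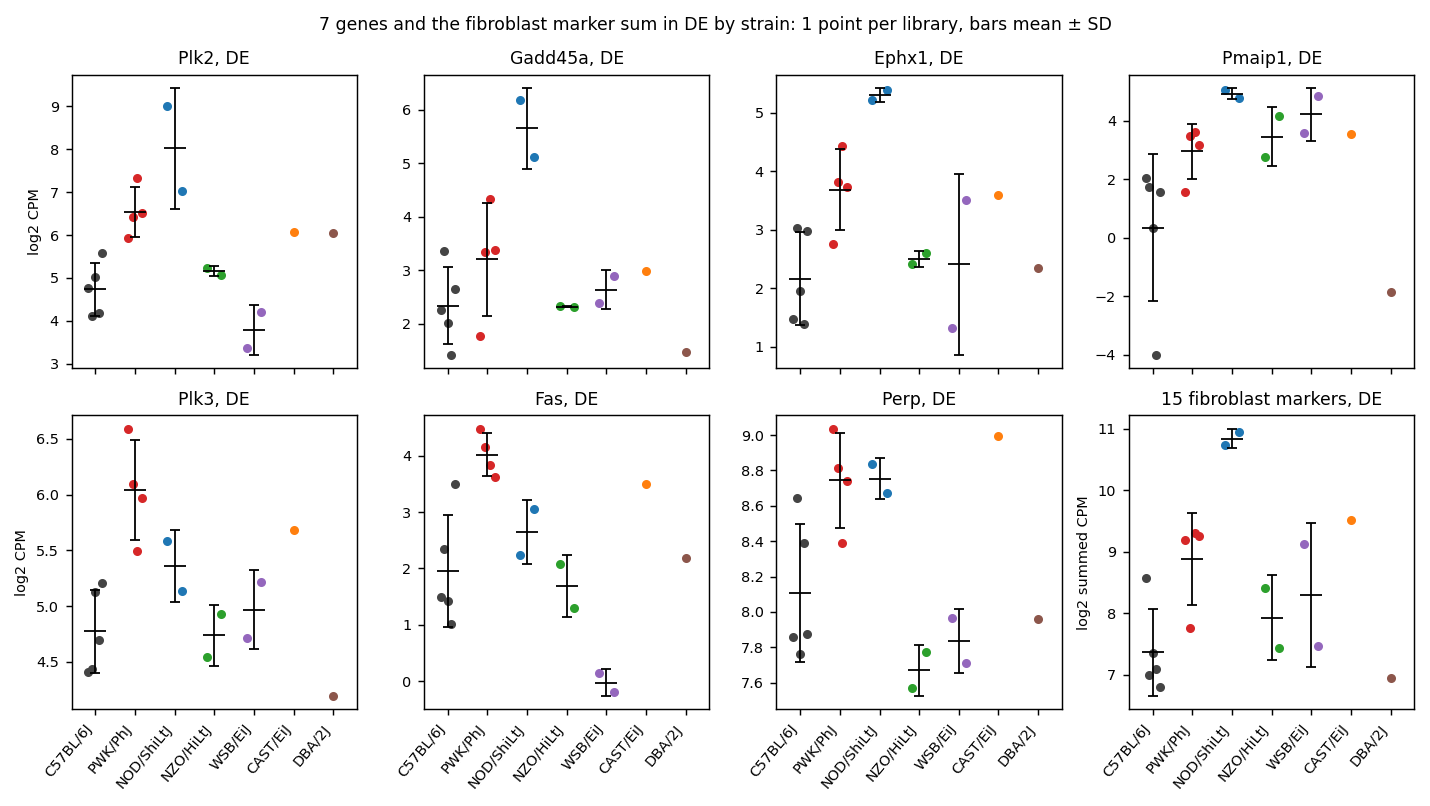
Log2 CPM (y axis) of 7 genes in DE by strain (x axis), with the log2 summed CPM of 15 fibroblast markers in the last panel, 1 point per library and mean ± SD for strains with 2 or more lines. The 2 NOD/ShiLtJ points lie above all others for Gadd45a, Ephx1 and the fibroblast sum, and the 4 PWK/PhJ points lie above all C57BL/6J points for Plk2, Plk3 and Fas.

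NZO/HiLtJ and WSB/EiJ DE had 0 called genes each, where 1.41% (0.918% higher, 0.492% lower) and 2.28% (1.19% higher, 1.09% lower) of all genes were called by edgeR. At an unadjusted p under 0.05 there were 4 genes for NZO/HiLtJ and 9 for WSB/EiJ, and DESeq2 called 0 and 3. Cdkn1a stood at 7.03 and 7.25 log2 CPM in NZO/HiLtJ and at 5.73 and 6.73 in WSB/EiJ, and Mdm2 at 7.40 and 7.46 and 6.82 and 7.12. Plk2 stood at 5.07 and 5.24 and 3.38 and 4.21 log2 CPM, Gadd45a at 2.31 and 2.33 and 2.38 and 2.90, and Perp at 7.57 and 7.77 and 7.71 and 7.96. Fas stood at 1.30 and 2.08 log2 CPM in NZO/HiLtJ, and at -0.19 and 0.14 in WSB/EiJ, below every other DE library (log2 fold -2.33 ± 0.65, SE; adjusted p = 0.0896). Single libraries of CAST/EiJ and DBA/2J stood at 7.68 and 7.15 log2 CPM for Cdkn1a, at 6.08 and 6.04 for Plk2, and at 7.62 and 8.24 for Trp53.

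Whether a strain effect differed between EpiSC and DE was tested as an interaction in the fit of all 34 libraries. Over the 5 strains, 6 of the 34 genes were called (Plk2, Perp, Gadd45a, Plk3, Tigar, Trp73), where 10.7% of all genes were. Of these, Plk2 and Perp were called without each of 29 libraries, and the call ended in 11 of the 29 fits for Tigar, in 6 each for Plk3 and Trp73 and in 3 for Gadd45a. Without the DE library of PWK/PhJ AC695, 3 were called. With cell line as a replicate block Perp (adjusted p = 0.067), Tigar (0.080) and Trp73 (0.13) were not called, and Cdkn1a was (0.033). For PWK/PhJ 3 genes were called, each with a larger effect in DE, where 6.67% of all genes were (3.97% larger in DE, 2.70% smaller). Plk3 was at -0.10 ± 0.13 in EpiSC and 1.28 ± 0.25 in DE, a difference of 1.41 ± 0.29 (SE; adjusted p = 0.0033), which was called without each of 17 libraries. Perp was at -0.59 ± 0.23 and 0.63 ± 0.19, a difference of 1.24 ± 0.31 (SE; adjusted p = 0.0138). That call ended without EpiSC PWK/PhJ AC705 (1.18) and with cell line as a replicate block (1.32, adjusted p = 0.061). The third was Trp73, whose counts in C57BL/6J DE are near 0.

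For NOD/ShiLtJ 4 genes were called, again larger in DE, where 6.96% of all genes were (4.54% larger, 2.42% smaller). Gadd45a was at -0.20 ± 0.31 in EpiSC and 3.33 ± 0.51 in DE, a difference of 3.50 ± 0.70 (SE; adjusted p = 0.00361). Plk2 differed by 2.83 ± 0.60 (SE; adjusted p = 0.0058) and Tigar by 1.00 ± 0.24 (SE; adjusted p = 0.0122), and Trp73 was the fourth. Without the DE library of AC576, 0 of the 34 were called, with Gadd45a at 2.76, Plk2 at 1.38 and Tigar at 0.67. Without the EpiSC library of AC576, Tigar alone was called (Gadd45a at 3.15, Plk2 at 2.70), and without that of AC595, Gadd45a and Plk2 (Tigar at 0.75). Cdkn1a was called for neither strain, with a difference of 0.15 ± 0.34 for PWK/PhJ and 0.41 ± 0.40 for NOD/ShiLtJ (SE), nor was Mdm2 (-0.18 ± 0.28 and 0.63 ± 0.34). For NZO/HiLtJ (0.407% of all genes) and WSB/EiJ (0.871%) 0 of the 34 were called by edgeR. At an unadjusted p under 0.05 there were 3 and 8 genes, and DESeq2 called 0 and 1.

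**Figure D5:**
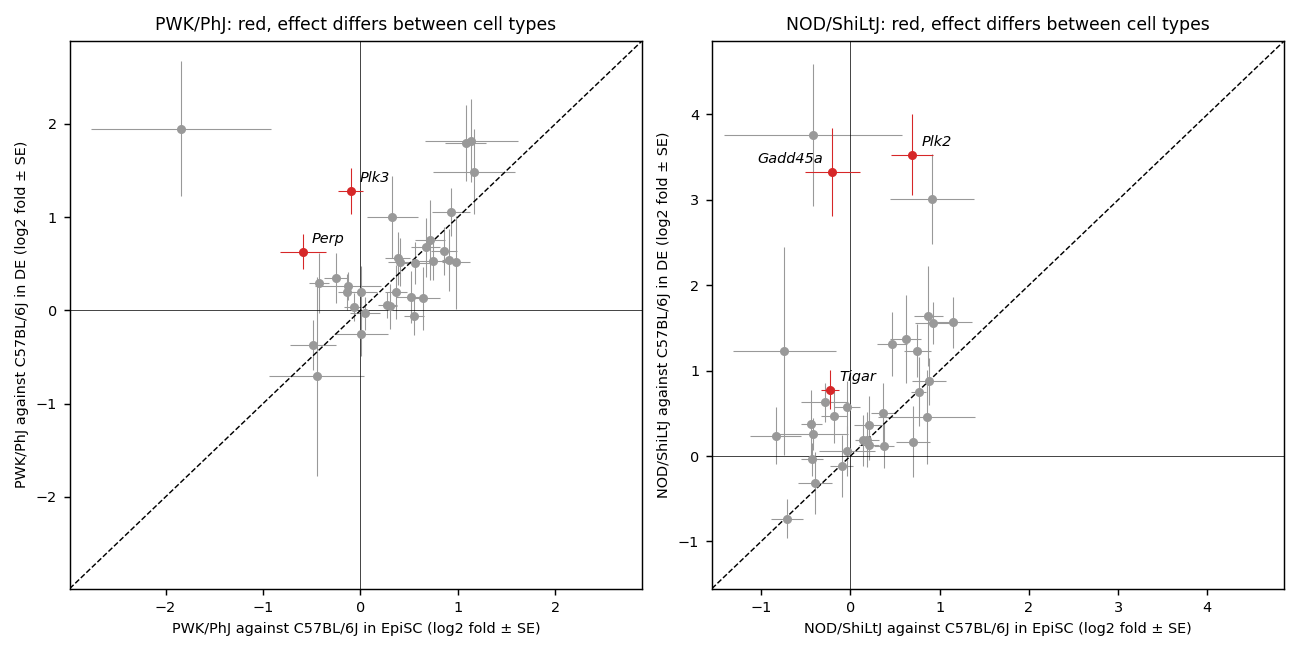
Log2 fold against C57BL/6J in EpiSC (x axis) and in DE (y axis), each ± SE, for PWK/PhJ (left) and NOD/ShiLtJ (right), 1 point per gene with Trp73 left out for its low counts; the dashed line marks equal effects. Red points are genes whose effect differed between cell types (adjusted p under 0.05). Plk3 and Perp lie above the line for PWK/PhJ, and Gadd45a, Plk2 and Tigar for NOD/ShiLtJ.

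Covariation with Cdkn1a, the best known p53 target, was taken across the 17 libraries of each cell type as Pearson's r of log2 CPM, with permutation p-values (100000 resamples, two-sided) adjusted by Benjamini-Hochberg over 66 relations, where 1e-05 is the smallest raw p they can give. Libraries of a strain are not independent, so r was also taken on deviations from strain means over the strains with 2 or more lines (16 libraries in EpiSC, 15 in DE). In EpiSC 19 of the 33 other genes were called, 16 with a positive r and 3 with a negative one. Covariation of all genes with Cdkn1a was not computed, so these counts, and those for DE below, have no background share. The largest were Trp53inp1 (r = 0.92, rho = 0.96, adjusted permutation p = 1.10e-04, 0.75 within strains, 0.92 without the 2 libraries farthest from the median of Cdkn1a), Ccng1 (r = 0.91, rho = 0.90, adjusted permutation p = 1.10e-04, 0.71 within strains, 0.90 without the 2 libraries farthest from the median of Cdkn1a) and Mdm2 (r = 0.91, rho = 0.90, adjusted permutation p = 1.10e-04, 0.72 within strains, 0.88 without the 2 libraries farthest from the median of Cdkn1a). The negative relations were those of Tigar, Xpc and Sesn1 (r = -0.57, -0.55 and -0.54, and -0.03, -0.33 and -0.69 within strains). By Spearman's rho Aen (0.30, adjusted permutation p = 0.302), Xpc (-0.52, adjusted permutation p = 0.0613) and Sesn1 (-0.43, adjusted permutation p = 0.134) were not called. For Bbc3 and Pmaip1 r was -0.04 and 0.00.

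In DE 20 of 33 were called, 19 with a positive r, and 1 (Sesn1, r = -0.53) with a negative one. By Spearman's rho Sesn1 (-0.50, adjusted permutation p = 0.0707) was not called and Bax was (0.71, adjusted permutation p = 0.0062). The largest were Plk2 (r = 0.93, rho = 0.93, adjusted permutation p = 1.10e-04, 0.75 within strains, 0.90 without the 2 libraries farthest from the median of Cdkn1a), Ccng1 (r = 0.91, rho = 0.92, adjusted permutation p = 1.10e-04, 0.68 within strains, 0.84 without the 2 libraries farthest from the median of Cdkn1a) and Phlda3 (r = 0.90, rho = 0.88, adjusted permutation p = 1.10e-04, 0.83 within strains, 0.82 without the 2 libraries farthest from the median of Cdkn1a). Mdm2 followed with r = 0.82. Within strains 18 of the 19 genes called in EpiSC and 19 of the 20 called in DE kept the sign of their r. The exceptions were Tnfrsf10b in EpiSC (r = 0.77, -0.03 within strains) and Perp in DE (r = 0.63, -0.21 within strains). The median r over the 33 genes was 0.45 in EpiSC and 0.62 in DE, and 0.42 and 0.40 within strains. Trp53 correlated with Cdkn1a at r = 0.57 in EpiSC (0.30 within strains). In DE its r was 0.19 (0.29 within strains) and was not called (adjusted permutation p = 0.523). These are relations across libraries that share strain and culture, and depth and marker levels were not held constant.

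Genes upstream of p53 and further genes of the pathway were read from lists of 18 regulators, 12 genes of the apoptosis machinery and 19 other targets. In DE against EpiSC, 16 of 18 regulators were called, 12 lower and 4 higher (median log2 fold -1.32), beside 77.2% of all genes. The largest falls past the test were those of Cdkn2a (-4.49 ± 0.39), whose Arf product inhibits Mdm2, and of the damage kinase gene Atm (-2.57 ± 0.09, SE). Of the apoptosis machinery 4 fell and 4 rose, and the largest fall was that of Bak1, a pore-forming partner of Bax, at -4.72 ± 0.24 (SE). Of the 19 other targets 7 rose and 7 fell, with Rap2b at -3.25 ± 0.20 and Lif at -1.76 ± 0.28 (SE). The 3 totals are near that background. By direction, 12 of 18 regulators fell, where 39.9% of all genes did and 37.3% rose.

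The same lists were read between strains. In PWK/PhJ EpiSC, where 29.8% of all genes were called, 1 of 18 regulators rose and 1 fell: Rchy1, a ubiquitin ligase for p53, at 0.37 ± 0.10, and the mitotic kinase gene Aurka at -0.38 ± 0.07 (SE). The apoptosis machinery had 0 higher and 3 lower of 12, among them Casp9 (-0.45 ± 0.13) and Bak1 (-0.35 ± 0.09, SE). The 19 other targets had 2 higher and 3 lower, with the replication clamp gene Pcna at -0.71 ± 0.10 (SE). Median log2 folds were 0.00, 0.04 and -0.04 for the 3 lists, beside 0.37 for the 34 genes. In CAST/EiJ EpiSC, where 31.6% of all genes were called, 6 of 18 regulators, 4 of 12 apoptosis genes and 9 of 19 other targets were. Among them Hipk2 was at 0.94 ± 0.11, the checkpoint kinase gene Chek2 at -0.45 ± 0.10, Psrc1 at -0.94 ± 0.11 and Pcna at -0.91 ± 0.12 (SE). In NOD/ShiLtJ EpiSC (12.9% of all genes called) 3 of 18 regulators rose, led by the deacetylase gene Sirt1 at 0.83 ± 0.17, and 1 fell, the kinase gene Hipk2 at -0.65 ± 0.12 (SE). In NOD/ShiLtJ DE (11.4% of all genes called) Sirt1 was the 1 regulator called, at -1.20 ± 0.27, and Sfn (14-3-3 sigma), a p53 target of epithelia, was at 5.03 ± 0.58 (SE). In PWK/PhJ DE (17.1% of all genes called) 0 of 18 regulators were called by edgeR, and Sfn was at 2.03 ± 0.49 and the small GTPase gene Rap2b at 1.87 ± 0.33 (SE).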

How the data were processed

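Counts of reads per gene were deposited by the authors in 2 tables of raw counts, 1 for each cell type, with no normalization. STAR 2.4, HTSeq 0.6.1, DESeq2 and the build mm10 are named, per the submitters' processing notes; the strand setting, and how multiply aligned reads were handled, are not given in the sources used. All strains were thus counted on 1 reference build, and its effect on strain differences was not tested. Total counts were 23.8 to 67.7 M per library.

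Genes with 10 or more counts in 3 or more libraries were tested in R 4.3.3 with the quasi-likelihood F test of edgeR 4.0.16 (robust, TMM factors), with Benjamini-Hochberg adjustment over all genes tested and a threshold of 0.05. Strains were compared within a cell type on 17 libraries, DE with EpiSC on 34 libraries with strain as a term, and strain by cell type as an interaction on the same 34. Log2 CPM used TMM factors over all 34 libraries and a prior count of 2. DESeq2 1.42.0, other scaling, filters and covariates, and leaving out each library were alternatives. Each library is a separate line, and no 2 replicates agreed within sampling noise. Libraries of EpiSC and DE come from the same 16 lines. The correlation of same-line deviations from strain means was 0.0014 to 0.15 over 14 lines (median 0.036), so cell line as a block was fitted as an alternative.

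The genes and lists were chosen with earlier results of these data known. Genes were named with values per library for Trp53, Cdkn1a and Mdm2, the 8 smallest strain F-test p-values per cell type and the 6 largest folds between cell types, and list genes for the 2 largest folds per list. Genes under 10 counts in every library of a group are given as summed counts. Others were named to complete a role. Not every list gene that the rule names is reported here. The tests were checked on simulated data. There the strain F test recovered a 2-fold change placed in PWK/PhJ in 55.6% of changed genes in EpiSC and 21.7% in DE. The PWK/PhJ comparison recovered it in 70% and 37.7%. Strain changes were placed in PWK/PhJ only, so recovery for strains with fewer lines was not measured, and genes not called may still differ.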

Additional observations from a re-analysis of the deposited data

Results flagged for a closer look

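A library stood far from the others of its strain in 6 of 102 groups of 4 or more lines, where chance gives about 1 in 20. In C57BL/6J DE, line 44 had a Trp73 level of -3.31 log2 CPM (1 count, where the other 4 lines had 0) and a Pmaip1 level of -4.01 log2 CPM (0 counts). In PWK/PhJ DE, line AC699 had a Trp53inp1 level of 7.02 log2 CPM and a Gdf15 level of -4.01 log2 CPM (0 counts). In C57BL/6J EpiSC, line 5-1 had a Plk2 level of 6.38 and an Aen level of 7.40 log2 CPM, above the other 4 lines.

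The strain effect differed between cell types in 7 tests (edgeR, adjusted p under 0.05). For PWK/PhJ the effect in DE exceeded that in EpiSC by 1.24 for Perp, 1.41 for Plk3 and 5.92 for Trp73 (log2). For NOD/ShiLtJ it did so by 3.50 for Gadd45a, 2.83 for Plk2, 1.00 for Tigar and 5.59 for Trp73. Both Trp73 values depend on the prior count, since C57BL/6J DE held 1 count in 5 libraries.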

How the results depend on the processing

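Counts of the 34 genes called moved by over 1.5 times as follows; the cause was not tested. Without a filter on low counts they were 20 for strain in DE (12 with the filter), 0 for NZO/HiLtJ EpiSC, 3 for CAST/EiJ EpiSC, 13 for PWK/PhJ DE, 3 for NZO/HiLtJ DE, 6 for WSB/EiJ DE, 17 for the strain interaction, 4 for its NZO/HiLtJ and 6 for its WSB/EiJ term. DESeq2 called 20 for strain in DE, 6 for NZO/HiLtJ EpiSC, 3 for WSB/EiJ DE and 1 for the WSB/EiJ interaction. RLE scaling called 0 for NZO/HiLtJ EpiSC. With the fibroblast covariate they were 4 for strain in DE, 11 for PWK/PhJ EpiSC, 2 for NZO/HiLtJ EpiSC, 3 for PWK/PhJ DE, 0 for NOD/ShiLtJ DE and 1 for the WSB/EiJ interaction. That covariate reversed the sign of Gadd45a (0.76, then not called) and Ephx1 (0.88, called) between cell types. With the Y-linked covariate PWK/PhJ EpiSC had 6.

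Leaving out 1 library, the counts ran from 14 to 23 for strain in EpiSC and from 8 to 15 in DE. In EpiSC they ran from 10 to 21 for PWK/PhJ, from 3 to 16 for NOD/ShiLtJ, from 0 to 5 for NZO/HiLtJ, from 2 to 5 for WSB/EiJ and from 2 to 11 for CAST/EiJ. In DE they ran from 5 to 11 for PWK/PhJ, from 3 to 13 for NOD/ShiLtJ and from 0 to 1 for WSB/EiJ (1 without C57BL/6J 44). For the interaction they ran from 3 to 7 over strains, from 0 to 5 for NOD/ShiLtJ and from 0 to 1 for WSB/EiJ (1 without the DE library of C57BL/6J 44).

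With cell line as a replicate block, 54 of 60 results kept their call, 1 gained and 5 lost it. The gain was Cdkn1a over strains (adjusted p = 0.033). Those lost were Perp for PWK/PhJ (1.32, adjusted p = 0.061), Trp73 for NOD/ShiLtJ (5.09, adjusted p = 0.11) and, over strains, Trp73 (adjusted p = 0.13), Perp (0.067) and Tigar (0.080). Of 8 lines in strains with 3 or more lines, 5 correlated best with their own line. Genes such as Trp73, Gdf15 and Fas had few counts, and small differences in them were not detectable at this depth.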

Other observations

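The 9 targets of ATF4, a factor of the integrated stress response that shares targets such as Sesn2 with other stress pathways, were also read. In EpiSC their log2 summed CPM was 10.15 to 10.30 in PWK/PhJ, 10.02 and 10.85 in NOD/ShiLtJ, 10.16 and 10.17 in CAST/EiJ, 10.73 and 10.78 in NZO/HiLtJ, 10.30 and 10.94 in WSB/EiJ and 10.73 to 11.36 in C57BL/6J. In edgeR's test 5 of the 9 fell in PWK/PhJ (16.1% of all genes did), 5 in CAST/EiJ (17.1%) and 3 in NOD/ShiLtJ (6.94%), with median log2 folds of -0.68, -0.89 and -0.61. In NZO/HiLtJ and WSB/EiJ the medians were -0.36 and -0.26, with 9 and 8 of the 9 below 0. These comparisons share the C57BL/6J libraries. In DE the sums were 9.48 to 9.89 in PWK/PhJ, 10.09 and 10.39 in NOD/ShiLtJ and 9.43 to 9.96 in C57BL/6J.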
